A study of Mus musculus with 11 samples.

Results

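Fibroblast growth factor (FGF) signaling in bone was followed through 8 genes: the receptors Fgfr1, Fgfr2 and Fgfr3 and the ligands Fgf1, Fgf2, Fgf7, Fgf18 and Fgf23. They were chosen by symbol, all 8 were found among the 22600 genes of the count table, and all 8 passed the filter on low counts that left 16496 genes to test. RNA was extracted from the whole distal tibia of each mouse, 4 Control and 7 BMAd-DTA, and sequenced as 1 library per mouse. All mice were labelled C57BL6/SJL, 24 weeks old and fed ad libitum. According to the study, every mouse, controls included, carried Osterix-FLPo and FAC, an Adipoq-Cre that FLPo has to turn into the sense orientation. BMAd-DTA mice also carried ROSA-DTA, in which Cre removes a STOP cassette so that diphtheria toxin A is made and kills the cell. The model has limits that its authors give: recombination in BM adipocytes is incomplete in young mice, and a small subset of marrow adipogenic lineage precursors is also reached. The question for these genes was whether their RNA differed between bones with and without the toxin.

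FGFs are secreted proteins that bind receptor tyrosine kinases at the cell surface together with heparan sulfate chains, and the bound receptor passes the signal through adaptor proteins to the RAS and ERK kinases. In the skeleton, FGFR1 and FGFR2 are known from cells of the osteoblast lineage and FGFR3 from growth plate chondrocytes, where it restrains cartilage growth. Activating mutations of FGFR3 cause achondroplasia, and those of FGFR2 cause premature fusion of the skull sutures. FGF23 differs from most of the family in acting as a hormone: it is released by osteocytes and makes the kidney excrete phosphate.

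The libraries held 16969529 to 18637663 counts on genes. Markers of osteoblasts, 8 genes that include Col1a1, Bglap and Alpl, summed to 2741 to 12769 CPM (counts scaled to a common library size) in Control and 15033 to 35666 CPM in BMAd-DTA libraries, so that bone cells were plainly present and the groups did not overlap. Control replicate 1 stood apart with the lowest of these sums. Adipocyte markers, 10 genes, summed to 1054 to 1821 CPM in Control and 405 to 1275 CPM in BMAd-DTA libraries. The study describes these mice as male. Xist, however, had 13810 to 20260 counts in every library and 4 genes of the Y chromosome together 0 to 1. In RNA from a whole bone, more or fewer cells of a type and more or less RNA per cell cannot be told apart.

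All 3 receptors had higher means in BMAd-DTA bones, by 1.39-fold to 1.60-fold, and the call depended on the tool. Fgfr2 and Fgfr3 did not overlap between the groups, and Fgf1 was the only one of the 5 member ligands with an unadjusted p under 0.05 in edgeR. In the quasi-likelihood test of edgeR, with p adjusted after Benjamini-Hochberg for the whole table, 0 of the 8 members were past an adjusted p of 0.05 in either direction, beside 0.0727% of all tested genes called higher and 0.00606% called lower. By DESeq2, 3 of the 8 were called higher and 0 lower, against 2.61% higher and 2.49% lower over all genes. Without Control replicate 1, DESeq2 called 1 member, Fgfr2, and calls over all genes were not counted in that refit. At an unadjusted p under 0.05 in edgeR, 4 members were higher and 0 lower, while the shares over all genes were 7.89% and 8.53%. DESeq2 gave 4 higher and 1 lower at an unadjusted p under 0.05, beside 2820 of 16496 genes in either direction. Complete separation of the groups held for 2 members, both higher, and for 1.78% of all genes in that direction and 1.04% in the other.

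**Figure D1:**
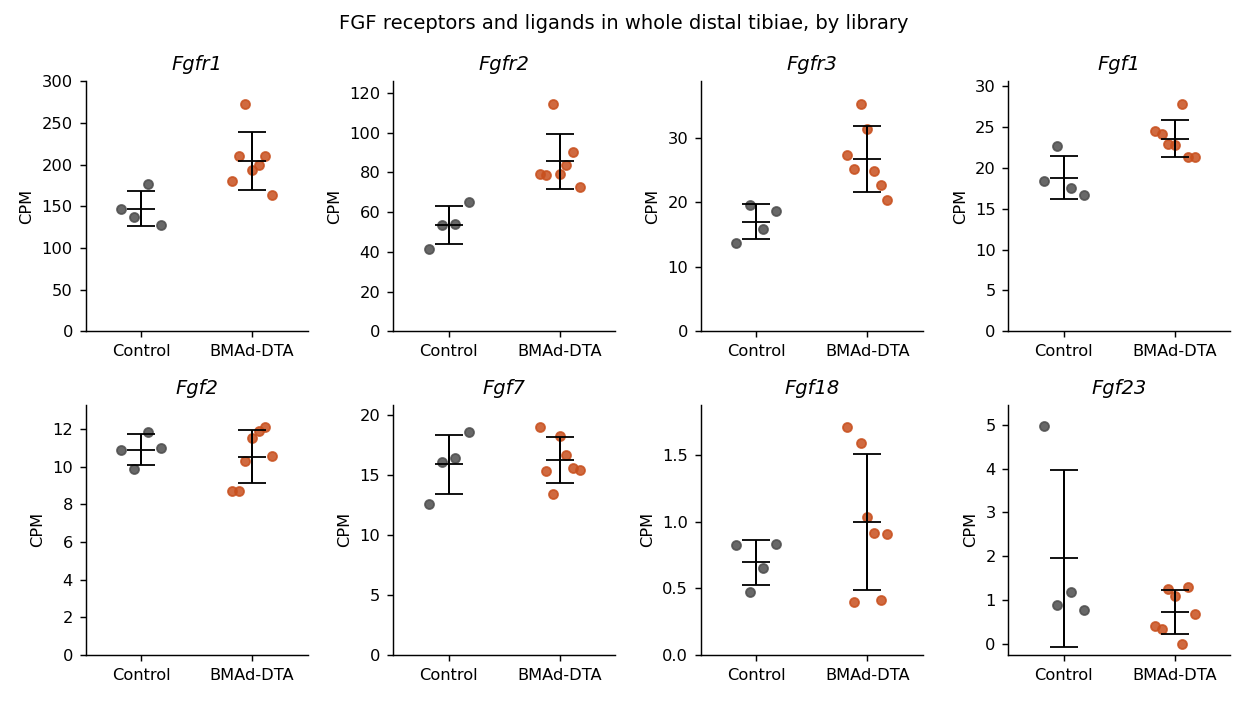
CPM of the 8 genes in each of the 4 Control and 7 BMAd-DTA libraries, 1 panel per gene with its own axis. Points are libraries and bars the mean with its SD. The points of Fgfr2 and Fgfr3 do not overlap between groups, those of Fgf2 and Fgf7 lie over each other, and 1 Control library of Fgf23 sits at 4.96 CPM, far above the rest.

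Fgfr2, on chromosome 7 (GRCm38, 130162451 to 133123350, minus strand), encodes a receptor of osteoblasts and their progenitors. Its CPM in the 4 controls was 41.5, 53.5, 54.0 and 65.1, and in the 7 BMAd-DTA libraries it ran from 72.6 through a median of 79.3 to 115. Every BMAd-DTA library was thus above every control. The means were 53.5 ± 9.63 (SD, n = 4) and 85.5 ± 13.9 (SD, n = 7) CPM, with a log2 fold change of 0.68 (SE 0.13; 95% interval 0.39 to 0.97). Its adjusted p was 0.0675 by edgeR, the 48th smallest p of all tested genes, and 0.000277 by DESeq2. Without Control replicate 4, the highest control, edgeR gave an adjusted p of 0.0487, and DESeq2 called Fgfr2 with each of the 11 libraries left out.

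Fgfr3, on chromosome 5 (33721674 to 33737068, plus strand), encodes the receptor best known from cartilage. Its controls had 13.7, 19.6, 15.9 and 18.7 CPM, and the BMAd-DTA libraries 20.3 to 35.3 CPM with a median of 25.2. Again no BMAd-DTA library reached down to a control, although the lowest of one group and the highest of the other lay close together. The means were 16.99 ± 2.69 and 26.7 ± 5.15 CPM, with a log2 fold change of 0.65 (SE 0.15; 95% interval 0.33 to 0.98). The adjusted p was 0.0724 by edgeR and 0.0028 by DESeq2, and without Control replicate 1 the latter was 0.0524.

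Fgfr1, on chromosome 8 (25513654 to 25575718, plus strand), encodes a receptor found in mesenchymal cells and osteocytes and was the most abundant of the 8 genes. The controls had 147, 137, 176.5 and 128 CPM, and the BMAd-DTA libraries 164 to 273 CPM with a median of 199. In 6 of 7 BMAd-DTA libraries Fgfr1 was above every control, and 1 control, replicate 3, reached into their range. The means were 147 ± 21.0 and 205 ± 34.6 CPM, with a log2 fold change of 0.48 (SE 0.13; 95% interval 0.20 to 0.75). The adjusted p was 0.0992 by edgeR and 0.0111 by DESeq2. This call turned on single controls: edgeR gave 0.0497 without Control replicate 3, and DESeq2 gave 0.075, 0.0764 and 0.0513 without Control replicates 1, 2 and 4.

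The sequences before the starts of Fgfr2 and Fgfr3 are shown because these receptors had fold changes of like size and were the members that did not overlap between groups. They come from RefSeq on GRCm38.p6, whose promoter table matched 6 of the 8 members, and both end before any annotated exon of their strand. Capitals mark the matches to 4 motifs searched on both strands. The GC box was searched as GGGCGG. The CCAAT box was searched as the letters of its name. The core promoter box was searched as TATAAA, and the core site of RUNX factors as TGTGGT. The first is chr5:33721474-33721673 on the plus strand, directly before an annotated start, and the second is chr7:130266809-130267058 on the minus strand, 545 bases before the nearest downstream start in GENCODE. The Fgfr2 stretch lies inside the gene span given above, since the longest GENCODE transcript of Fgfr2 starts far upstream.
Fgfr3: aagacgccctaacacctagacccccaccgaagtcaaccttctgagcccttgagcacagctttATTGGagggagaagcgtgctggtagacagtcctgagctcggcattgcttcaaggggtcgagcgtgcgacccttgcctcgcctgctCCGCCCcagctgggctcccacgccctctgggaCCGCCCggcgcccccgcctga
Fgfr2: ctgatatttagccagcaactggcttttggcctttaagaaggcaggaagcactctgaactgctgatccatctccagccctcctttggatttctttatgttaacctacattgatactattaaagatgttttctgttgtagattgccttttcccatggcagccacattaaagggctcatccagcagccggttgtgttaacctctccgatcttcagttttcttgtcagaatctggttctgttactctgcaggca
The Fgfr3 stretch, 65% G and C, holds 2 GC boxes and 1 CCAAT box, each read on the opposite strand. A further RefSeq start of Fgfr3, with the stretch chr5:33722056-33722305 (72.8% G and C), has 2 GC boxes and no CCAAT box. The Fgfr2 stretch, 44% G and C, holds none of the 4 motifs. Over the whole windows of 300 bases, the counts of GC boxes were 4 and 2 for the starts of Fgfr3 and 0 for Fgfr2. Among 32851 promoters of 300 bases in the same table, 35.7% hold a GC box, 37.4% a CCAAT box, 13.6% the core promoter box and 16.8% a RUNX core, and their median G and C content is 52.7%. The windows shown thus differed in base composition. The receptors were chosen by their fold changes, and a relation of these to the letters was not tested. Counts per gene do not show which start was used, so this describes these letters and not any factor bound there.

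Among the ligands, Fgf1 had the clearest difference. FGF1 binds all of the FGF receptors, and its gene lies on the minus strand at 38838673 to 38929472 of its chromosome (GRCm38), with identifier ENSMUSG00000036585. Its controls had 18.4, 22.6, 17.5 and 16.7 CPM, and the BMAd-DTA libraries 21.3 to 27.8 CPM with a median of 22.9. In 5 of 7 BMAd-DTA libraries Fgf1 was above every control, and Control replicate 2 lay within the other group. The means were 18.8 ± 2.64 and 23.5 ± 2.27 CPM, with a log2 fold change of 0.32 (SE 0.10; 95% interval 0.10 to 0.54). Neither tool called it, with an adjusted p of 0.137 by edgeR and 0.0635 by DESeq2, although DESeq2 gave 0.0152 without Control replicate 2.

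Fgf2 and Fgf7 showed the narrowest intervals around no change. Fgf2, on chromosome 3 (37348346 to 37410108, plus strand), encodes basic FGF, which osteoblasts store in the bone matrix. Its CPM was 10.9, 9.89, 11.9 and 10.99 in the controls and 8.71 to 12.1 with a median of 10.6 in BMAd-DTA libraries, so that the groups overlapped. The log2 fold change was -0.050 (SE 0.12; 95% interval -0.30 to 0.20; adjusted p = 0.879 by edgeR). Fgf7, on chromosome 2 (126034658 to 126091185, plus strand), encodes keratinocyte growth factor, made by mesenchymal cells and bound by the epithelial form of FGFR2. Its controls had 12.6, 16.1, 16.4 and 18.6 CPM, and BMAd-DTA libraries 13.4 to 19.0 CPM with a median of 15.6. These groups also overlapped, with a log2 fold change of 0.030 (SE 0.12; 95% interval -0.23 to 0.28; adjusted p = 0.934 by edgeR). For both genes, changes of the size measured in Fgfr2 lay outside the interval.

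The other ligands were near the bottom of what these libraries could measure. Fgf18, on chromosome 11 (33117430 to 33147400, minus strand), encodes a ligand that acts on chondrocytes and osteoblasts in development. It had 7 to 29 counts per library. Its CPM was 0.827, 0.471, 0.650 and 0.830 in the controls and 0.401 to 1.71 with a median of 0.918 in BMAd-DTA libraries. The BMAd-DTA libraries spread on both sides of the controls, 5 above and 2 below all of them, and the log2 fold change of 0.51 had an SE of 0.42 and a 95% interval of -0.39 to 1.41 (adjusted p = 0.594 by edgeR). With so few counts, the interval held both lower and higher levels.

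Fgf23, on chromosome 6 (127072902 to 127081408, plus strand), had 15 to 90 counts in the controls and 0 to 22 in BMAd-DTA libraries. Its CPM was 4.96 in Control replicate 1 and 0.883, 1.18 and 0.778 in the other controls, against 0 to 1.29 with a median of 0.693 in BMAd-DTA libraries. In the library with 0 counts, BMAd-DTA replicate 5, the limit that a count of 0 allows is 0.172 CPM, taking 3 counts and counting error only. The log2 fold change was -1.42 (SE 0.67; 95% interval -2.87 to 0.032; adjusted p = 0.315 by edgeR), and 4 of 7 BMAd-DTA libraries were below every control. Without Control replicate 1, the library with the lowest sum of osteoblast markers, the log2 fold change was -0.38 (adjusted p = 0.886 by edgeR). The size of this difference thus rested on 1 library, while its sign stayed.

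**Figure D2:**
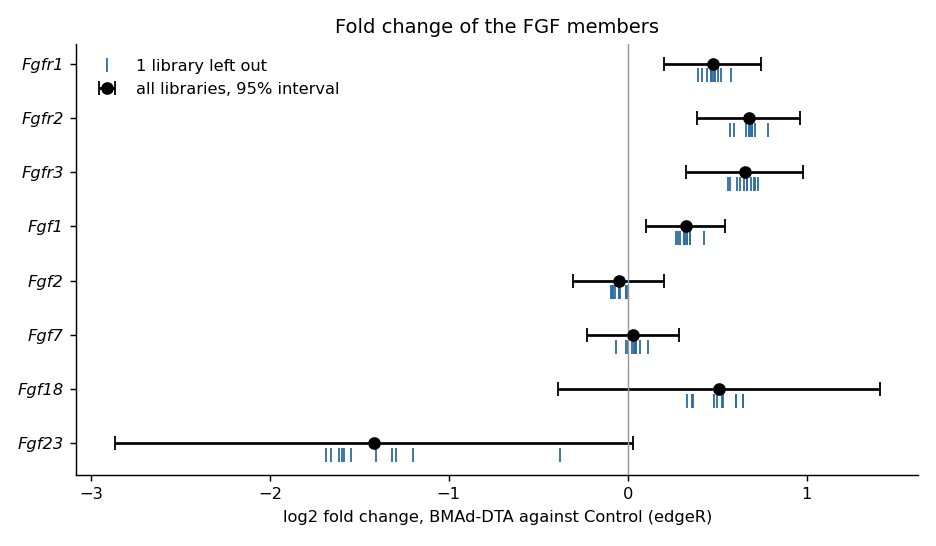
Log2 fold change of each gene, BMAd-DTA against Control, from edgeR. Black points are the fits over all 11 libraries with 95% intervals, and blue ticks below them the fits with 1 library left out. The 3 receptors and Fgf1 lie right of 0 with each library left out, Fgf2 and Fgf7 lie at 0, and Fgf23 moves from -1.42 to -0.38 without 1 control.

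Levels of different genes were set side by side as CPM per kilobase of exon. In controls Fgfr1 had 14.9 ± 2.13, Fgfr2 5.18 ± 0.932, Fgf7 4.90 ± 0.757 and Fgf1 3.44 ± 0.482 CPM per kilobase. They were followed by Fgfr3 with 2.37 ± 0.376, Fgf2 with 1.61 ± 0.120, Fgf23 with 1.08 ± 1.11 and Fgf18 with 0.585 ± 0.144 CPM per kilobase. Neighbors whose ranges overlapped in controls were Fgfr2 and Fgf7, Fgf7 and Fgf1, Fgf2 and Fgf23, and Fgf23 and Fgf18. Fgfr1 stood above 82.7% of the tested genes with a level per kilobase, and Fgf23 above 15.0%.

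In BMAd-DTA bones the order was alike except at the bottom. Fgfr1 had 20.7 ± 3.502, Fgfr2 8.28 ± 1.35, Fgf7 5.005 ± 0.584 and Fgf1 4.31 ± 0.415 CPM per kilobase. Fgfr2 was above Fgf7 in 7 of 7 libraries and their ranges were separate there, whereas in controls Fgfr2 was above Fgf7 in 4 of 4 libraries with overlapping ranges. Fgfr3 had 3.73 ± 0.719, Fgf2 1.55 ± 0.208, Fgf18 0.839 ± 0.431 and Fgf23 0.400 ± 0.276 CPM per kilobase, and Fgfr3 overlapped with Fgf1. By its mean, Fgf7 was the most abundant ligand in both groups, although its range overlapped with that of Fgf1, and it lay below Fgfr1 in every library.

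**Figure D3:**
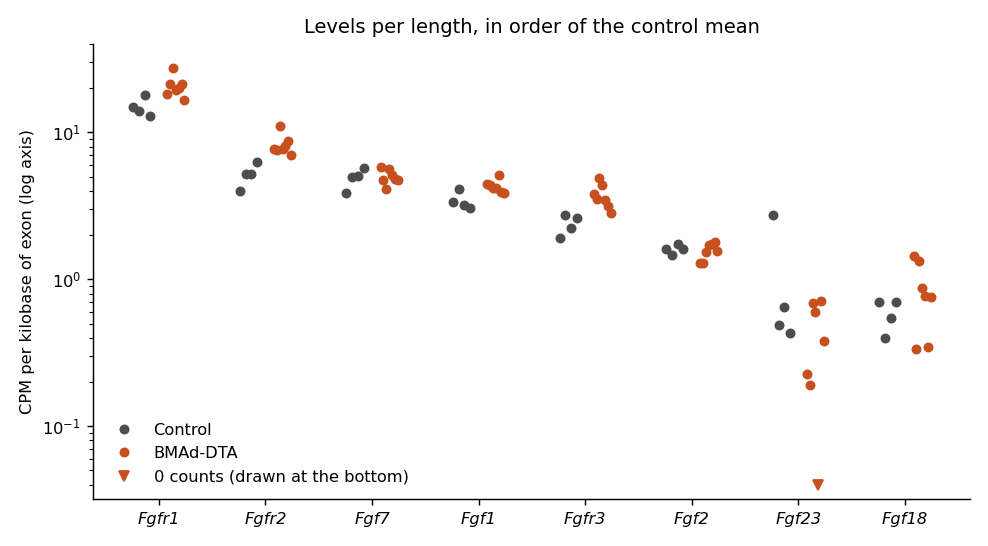
CPM per kilobase of exon on a log axis for each library, genes in order of the Control mean. Fgfr1 lies above all others in both groups, from 14.9 in controls to 20.7 in BMAd-DTA bones, and the triangle at the bottom marks the BMAd-DTA library with 0 counts of Fgf23.

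Whether 1 receptor differed more than another was tested on ratios of counts within a library, which do not depend on the scaling of libraries. The ratio of Fgfr2 to Fgfr1 was 0.283, 0.390, 0.306 and 0.508 in the controls and 0.373 to 0.443 in BMAd-DTA libraries. The mean log2 ratio was higher by 0.21 in BMAd-DTA bones (p = 0.179, exact permutation test over 330 splits, two-sided; adjusted p = 0.5 over 3 ratios). For Fgfr3 to Fgfr1 the difference was 0.18 (p = 0.333, adjusted p = 0.5, same exact test) and for Fgfr3 to Fgfr2 it was -0.034 (p = 0.791, adjusted p = 0.791, same exact test). No receptor was shown to have differed more than the others, and all 3 ratios overlapped between the groups. The first ratio was sensitive to single controls: its difference was 0.37 without Control replicate 4 (adjusted p = 0.05, exact permutation) and 0.092 without Control replicate 1 (adjusted p = 0.95, exact permutation). As shares of the 3 receptors' summed CPM per kilobase, Fgfr1 took 66.3% ± 5.81 in controls and 63.2% ± 1.45 in BMAd-DTA bones, Fgfr2 23.1% ± 4.21 and 25.3% ± 1.12, and Fgfr3 10.6% ± 1.91 and 11.4% ± 1.45.

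Reads from the opposite strand mattered for 1 gene. Fgf2 shares 640 bases of exon with Nudt6, a gene on the opposite strand, and 37.2% of the stranded counts over Fgf2 lay on that strand, 38.2% in controls and 36.5% in BMAd-DTA libraries. The strand used here excludes these reads. For the other members at most 2.26% of the stranded counts were opposite. Fgfr2 shares 314 bases of exon with Ctbp2 on the same strand, where reads of either gene are ambiguous. Fgfr3 shares 998 bases with G630022F23Rik on the opposite strand, which had 0 to 9 counts.

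Beside the receptors, markers of several cell types moved with the groups, and their part in these results was not tested. Osteoblast markers were fitted higher for 8 of 8 genes, of which edgeR called 1, and their median log2 fold change was 1.20. Osteocyte markers, 6 of 6 fitted higher, summed to 338 to 449 CPM in Control and 485 to 857 CPM in BMAd-DTA libraries. Chondrocyte markers, 8 of 9 fitted higher, summed to 462 to 926 and 1108 to 1353 CPM. These sums did not overlap between groups. The chondrocyte list, however, had a median log2 fold change of only 0.19, and the mean log2 CPM of its markers overlapped. That mean was 3.28 in Control replicate 4 and 3.01 in BMAd-DTA replicate 1. Tendon and fibrous tissue markers summed to 1539 to 3839 and 2332 to 4297 CPM, and skeletal muscle markers, 12 of 12 fitted lower, to 17.7 to 1117 and 16.8 to 900.1 CPM, both overlapping. Osteoclast markers, 6 of 6 fitted higher, summed to 1331 to 2871 and 1804 to 4643 CPM, and B lymphocyte markers, 6 of 6 higher, to 321 to 716 and 533 to 1239 CPM. Erythroid markers, 5 of 5 fitted lower, summed to 8023 to 19698 and 10753 to 19994 CPM. These 3 sums overlapped between groups.

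The receptors were also read against the osteoblast markers in the same library. Per 1000 CPM of osteoblast markers, Fgfr1 had 11.5 to 53.6 CPM in controls and 6.68 to 12.5 CPM in BMAd-DTA libraries, the highest control being replicate 1. Fgfr2 had 4.23 to 15.1 and 2.49 to 5.28 CPM, and Fgfr3 1.25 to 5.01 and 0.799 to 1.82 CPM on the same scale. Without Control replicate 1 the highest controls were 13.8, 5.82 and 1.75 CPM. On this scale the receptors had lower medians in BMAd-DTA bones than in controls, 9.38 against 13.1 CPM for Fgfr1, 4.02 against 5.30 for Fgfr2 and 1.17 against 1.71 for Fgfr3. With the chondrocyte score as a covariate, the log2 fold changes were 0.34 for Fgfr1, 0.35 for Fgfr2 and 0.51 for Fgfr3. Each had an adjusted p of 0.973 by edgeR, a value shared with Fgf1 (log2 fold change 0.45) and Fgf2 (-0.24). In that fit 3 of the 8 members stayed higher at an unadjusted p under 0.05, beside 820 of 16496 genes in either direction. With the skeletal muscle score the 3 receptors had log2 fold changes of 0.45, 0.62 and 0.59, with adjusted p of 0.186, 0.13 and 0.137 by edgeR.

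**Figure D4:**
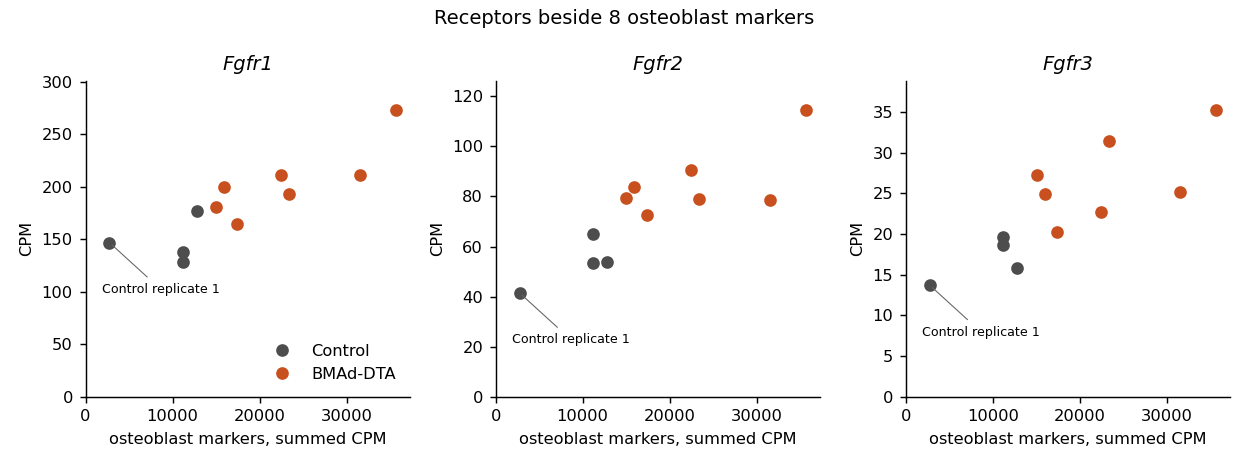
CPM of each receptor against the summed CPM of 8 osteoblast markers in the same library, 4 Control and 7 BMAd-DTA libraries. BMAd-DTA libraries lie to the right, from 15033 CPM of markers, and Control replicate 1 lies far left at 2741 CPM while its Fgfr1, at 147 CPM, is close to the Control mean.

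Other genes of FGF signaling were followed in 6 lists of 94 genes, of which 81 were in the count table and 73 were tested. By edgeR, with p adjusted as above, 0 of 73 were called higher and 0 lower, with 19 higher and 5 lower at an unadjusted p under 0.05, where 7.89% and 8.53% of all genes lay. DESeq2 called 9 higher and 1 lower, beside 2.61% and 2.49% of all genes. The median log2 fold change was 0.060 over the 73 genes and 0.0018 over all tested genes. Without Control replicate 1, DESeq2 called 3 of these genes higher, and without Control replicate 2 it called 4. Calls over all genes were not counted in these refits, so whether the drop was particular to the lists is not known.

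Heparan sulfate proteoglycans and other ligand-binding partners, which hold FGFs at the cell surface, had 3 of 21 genes called higher and 1 lower by DESeq2 (2.61% and 2.49% of all genes), and a median log2 fold change of 0.20. Sdc2, a syndecan, had 45.1 to 57.9 CPM in controls and 58.7 to 77.0 CPM in BMAd-DTA libraries, and these did not overlap, which held for 1.78% of all genes in that direction (log2 fold change 0.42, SE 0.090; adjusted p = 0.0675 by edgeR and 0.00188 by DESeq2). Gpc1, a glypican, had a log2 fold change of 0.51 (SE 0.15; adjusted p = 0.114 by edgeR and 0.0184 by DESeq2), and Sdc4 one of 0.40 (SE 0.10; 0.0895 and 0.0122). Hs6st1, which adds sulfate to the heparan chain, was the gene called lower (log2 fold change -0.43, SE 0.12; adjusted p = 0.0992 by edgeR and 0.0174 by DESeq2). Sdc3, the most abundant of the list per kilobase, had 363 to 409 CPM in controls and 380.4 to 526.2 CPM in BMAd-DTA libraries and was called by neither tool.

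The axis of FGF23 and phosphate had 4 of 10 genes called higher by DESeq2 (2.61% of all genes) and a median log2 fold change of 0.23. Vdr, the vitamin D receptor, had 34.5 to 53.6 CPM in controls and 58.9 to 118 CPM in BMAd-DTA libraries, again without overlap (1.78% of all genes; log2 fold change 0.80, SE 0.19; adjusted p = 0.0798 by edgeR and 0.00196 by DESeq2). Phex and Dmp1, whose loss is known to raise FGF23, had log2 fold changes of 0.70 (SE 0.19) and 0.57 (SE 0.18), with an adjusted p of 0.0992 and 0.144 by edgeR and 0.00627 and 0.0326 by DESeq2. Mepe, an osteocyte matrix protein, had one of 0.77 (SE 0.22; adjusted p = 0.116 by edgeR and 0.01 by DESeq2). Phex, Dmp1 and Mepe were named by the study from these same bones and are osteocyte markers, so their direction is no independent evidence. Fgf23 itself was fitted lower in the same libraries, as given above, but was called by neither tool. Its log2 fold change was -0.38 without Control replicate 1, and a link to Phex or Dmp1 was not tested.

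In the list of adaptors and the ERK cascade, 0 of 19 genes were called by either tool. Over all genes DESeq2 called 2.61% higher and 2.49% lower, and edgeR 0.0727% and 0.00606%, so 0 of 19 is near those shares. The median log2 fold change of the list was -0.030, and all 19 genes lay between -0.20 and 0.19. Ptpn11, encoding the phosphatase SHP2, had a log2 fold change of -0.20 (SE 0.085) and Araf, a kinase of the cascade, one of 0.14 (SE 0.058), and Mapk3, encoding ERK1, was the most abundant per kilobase with 225 ± 11.4 and 224 ± 21.9 CPM. Among 16 feedback inhibitors and targets the median was -0.0025. Spry4, a Sprouty inhibitor of receptor signaling, was called higher by DESeq2 (log2 fold change 0.46, SE 0.13; adjusted p = 0.0293) but not by edgeR (adjusted p = 0.109). DESeq2 called 1 of these 16 genes higher, beside 2.61% of all genes. Fosl1, a target gene of the ERK pathway with only 3 to 22 counts per library, had the largest fold change of this list. It was the only 1 of the 16 genes whose groups did not overlap, which held for 1.78% of all genes in that direction. Fosl1 is outside the rule for named genes and was chosen after its values were seen. Its CPM was 0.165 to 0.467 in controls and 0.646 to 1.18 in BMAd-DTA libraries (log2 fold change 1.42, SE 0.35; adjusted p = 0.081 by edgeR, unadjusted 0.00127), and DESeq2 gave no adjusted p. Etv4 (0.40, SE 0.29), Egr1 (0.32, SE 0.19) and Spry1 (0.27, SE 0.18) were called by neither tool.

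Of the remaining ligands, 5 of 17 listed were tested. Fgf13, a member of the family known mainly as an intracellular protein, was called higher by DESeq2 (log2 fold change 0.74, SE 0.25; adjusted p = 0.0444) but not by edgeR (adjusted p = 0.154). Over all genes DESeq2 called 2.61% higher. Fgf11 had 5.33 ± 0.210 and 5.77 ± 0.741 CPM. Fgf10 and Fgf3, ligands with few counts here, were likewise chosen after their values were seen. Fgf10 had 1 to 34 counts and lay below every control in 6 of 7 BMAd-DTA libraries (log2 fold change -1.58, SE 0.51; adjusted p = 0.148 by edgeR, unadjusted 0.00888). Fgf3 had 0 to 24 counts and lay above every control in 5 of 7 (log2 fold change 1.67, SE 0.78; adjusted p = 0.31 by edgeR), and DESeq2 gave neither gene an adjusted p. Among the other receptors and co-receptors 2 genes were tested, and Fgfrl1, a receptor without a kinase domain, had 27.1 ± 5.73 and 23.9 ± 5.53 CPM (log2 fold change -0.18, SE 0.18). Fgfr4 had 0 to 5 counts per library and was not tested.

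**Figure D5:**
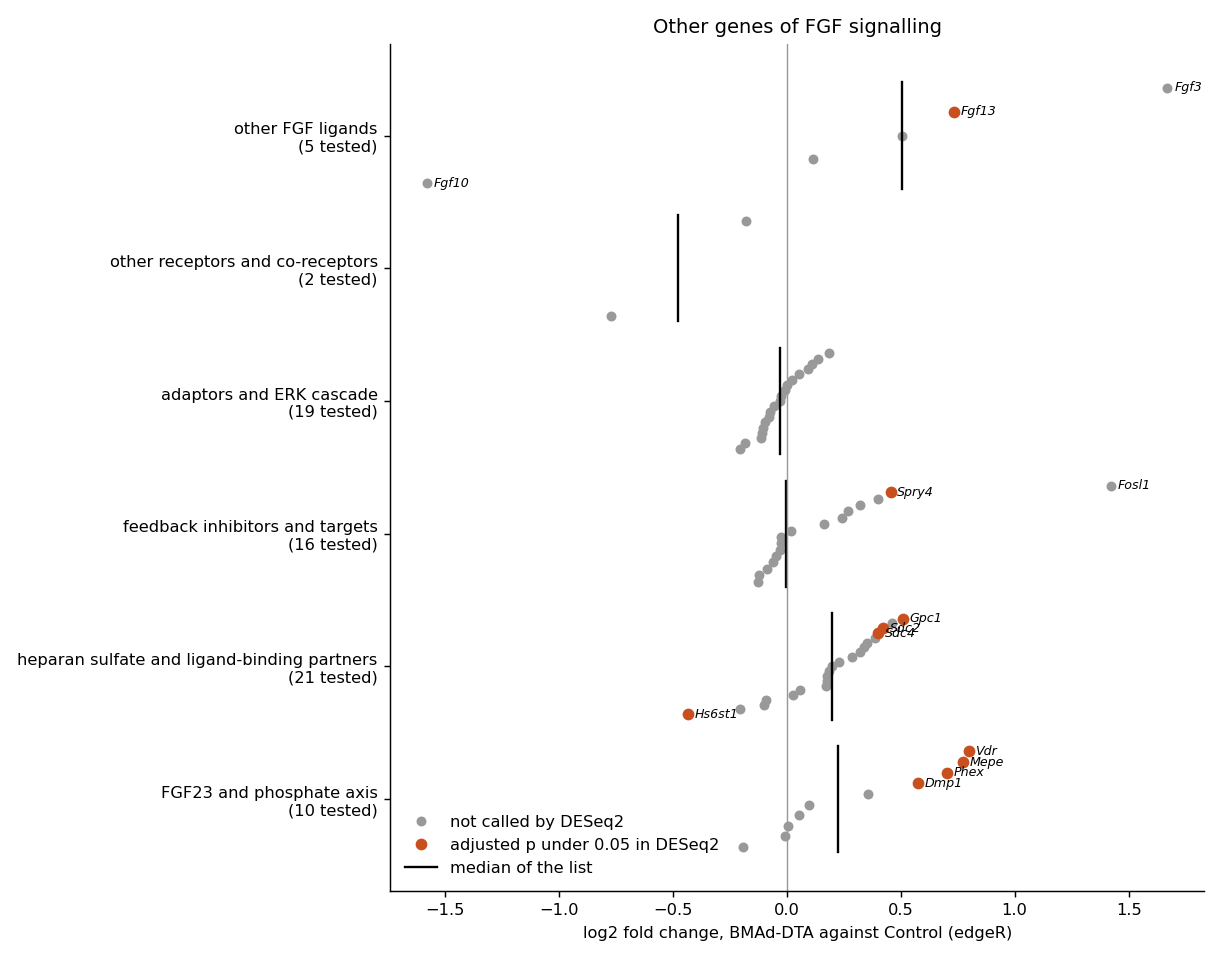
Log2 fold change from edgeR of the 73 tested genes in 6 lists of FGF signaling. Orange points are the 9 genes higher and 1 lower with an adjusted p under 0.05 in DESeq2, black lines the list medians. Genes of the ERK cascade lie close to 0. On the right, 3 of the 21 heparan sulfate genes and 4 of the 10 genes of the FGF23 axis are orange. Over all genes DESeq2 called 2.61% higher and 2.49% lower.

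The genes whose log2 CPM followed each member most closely over the 11 libraries were taken from 12967 candidates, as a description. All points share their libraries and the difference between groups, so r was also computed on deviations from the group means. Closest to Fgfr1 were Sept4 (r = 0.96; 0.94 within groups), Sec16b (0.95; 0.90) and Tspan11 (0.95; 0.89). Closest to Fgfr2 were Olfr289-ps1 (0.97; 0.89), Ctnnb1, encoding beta-catenin (0.96; 0.87), and St6galnac6 (0.96; 0.86). Closest to Fgfr3 were the Wnt receptor gene Fzd5 (0.95; 0.89), Dnm3os (0.95; 0.87) and Adgra2 (0.95; 0.87).

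For the ligands the closest genes had lower values. Fgf1 was followed by another Wnt receptor gene, Fzd7 (0.91; 0.89), then Mllt11 (0.89; 0.72) and Dpp7 (0.87; 0.73). Fgf2 was followed by Ddx47, Hectd2 and Hspe1 (each 0.86), Fgf7 by Igkv4-63 (0.89), Lama1 (0.88) and Pdzrn4 (0.87), Fgf18 by Hccs (0.89) and Rrp1b (0.88), and Fgf23 by Ciz1 (0.90), Nelfe (0.89) and Mmp25 (0.89). Among the members themselves, Fgfr2 and Fgfr3 had the highest r, 0.89 over all libraries and 0.69 within groups. Fgfr1 and Fgfr2 had 0.80 and 0.49, and Fgfr1 and Fgfr3 0.74 and 0.35. Fgf1 followed the receptors over all libraries, with r from 0.54 to 0.69, but from -0.13 to 0.24 within groups.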

How the data were processed

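Strand-specific mRNA sequencing of distal tibiae gave 1 library for each of 4 Control and 7 BMAd-DTA mice. The authors checked reads with FastQC 0.11.9, mapped them with STAR (default settings, mm10) and deposited unnormalized counts of read pairs per gene, once per library and once merged for 22600 genes. The annotation release is not given in the sources used here. The merged counts equal the read-strand counts of the libraries. Library sizes and tests leave out the pairs that were unmapped (9.10% to 15.1% of a library) or multimapping (6.68% to 9.07%). They also leave out pairs on no exon of the read strand (6.58% to 8.44%) and ambiguous pairs (1.49% to 1.70%). The mapped totals limit precision most for genes with few counts, such as Fgf18 and Fgf23.

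The main test was edgeR 4.0.16 under R 4.3.3 (low counts removed by filterByExpr, scaling by TMM, glmQLFit and glmQLFTest, two-sided, Benjamini-Hochberg adjustment over 16496 genes, threshold 0.05). The SE was derived from F, as log2 fold change over the root of F. CPM use TMM-scaled library sizes. Steps were tested on simulated data, in which 200 genes had a log2 fold change of 1 or -1. There edgeR recovered 65.5% to 71% of them with 3 to 12 false calls, and DESeq2 74% to 75% with 30 to 36. With no gene changed, edgeR made 0 calls and DESeq2 up to 8. The fitted changes of the receptors were smaller than those simulated. Lengths and positions came from GENCODE M21 on GRCm38, which matched 99.9% of identifiers, and promoters from RefSeq. Receptor ratios were compared by exact permutation over 330 splits, with a smallest possible p of 0.00303. Alternatives were DESeq2 1.42.0, limma-voom (limma 3.58.1), other scalings and filters, both kinds of per-library counts, marker scores as covariates and leaving out each library. Leaving libraries out of DESeq2 was added after seeing the data.

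The members and lists were chosen with earlier results of these data known. Named pathway genes are the 3 largest log2 fold changes per list with a mean of at least 50 counts, the most abundant per kilobase and those past 0.05 in either tool. Likeness used log2 CPM with a prior count of 2 over genes with at least 50 counts on average. Not every gene these rules name is reported here. Fgfr4, Fosl1, Fgf10 and Fgf3 were named after their values were seen. Genes of the lists outside the merged table were not analysed here. Replicates are separate mice as labelled.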

Additional observations from a re-analysis of the deposited data

Results flagged for a closer look

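A gap test asks whether the highest or lowest library of a group lies apart from the rest. It marked 6 of the 62 groups of values tested, where chance marks about 1 in 20. BMAd-DTA replicate 3 was marked for 3 genes. Its Fgfr1 was 273 CPM against 164 to 211 in the other 6 libraries of its group, its Fgfr2 was 115 CPM against 72.6 to 90.4, and its Mepe, an osteocyte matrix gene, was 239 CPM against 89.9 to 146. Without this library the log2 fold change of Fgfr1 was 0.39 by edgeR. The same library had the highest sum of osteoblast markers, 35666 CPM.

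Control replicate 1 was also marked for 3 genes. Its Fgf23 was 4.96 CPM against 0.778 to 1.18 in the other controls. Its Gpc1 was 122 CPM against 165 to 172 and its Phex was 43.0 CPM against 81.6 to 88.3. This library had the lowest sum of osteoblast markers, 2741 CPM. The part of these differences between libraries in the results was not tested.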

How the results depend on the processing

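The log2 fold changes of Fgfr1, Fgfr2, Fgfr3, Fgf1, Fgf2, Fgf18 and Fgf23 kept their direction under the 10 alternatives and with each of the 11 libraries left out. Fgf7, at 0.030 and up to 0.11 without Control replicate 4, turned to -0.0091 with the chondrocyte score as a covariate and to -0.067, -0.011 and -0.00083 without Control replicate 1, BMAd-DTA replicate 1 and BMAd-DTA replicate 4. The ratio of Fgfr3 to Fgfr2 turned to 0.034 without Control replicate 2 and to 0.018 without BMAd-DTA replicate 6. The causes were not tested.

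Members called higher numbered 0 by edgeR and 3 by DESeq2, and other pathway genes 0 and 9 higher and 0 and 1 lower. Over all genes, 12 were called higher, against 430 by DESeq2, 2 with the muscle score and 0 with the chondrocyte score, and 1 lower, against 411 by DESeq2, 6 by limma-voom, 5 with RLE scaling, 2 with unstranded counts and 0 with the chondrocyte score. With 1 library left out, edgeR called 0 to 176 genes higher and 0 to 116 lower, 0 to 1 members higher and 0 lower, and 0 to 2 pathway genes higher and 0 to 1 lower. The counts of 176 and 116 came without Control replicate 3, and 30 and 59 came without Control replicate 4. Leaving out Control replicate 1 or 2, or replicate 1 or 6 of BMAd-DTA, left 0 called genes in edgeR, with 1784, 2239, 2626 and 2528 genes at an unadjusted p under 0.05. DESeq2 with 1 library left out called 1 to 3 members and 3 to 10 pathway genes higher, and the 1 member without Control replicate 1 was Fgfr2. Calls over all genes were not counted in these DESeq2 refits.

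With 1 library left out, the differences of the log2 ratios ran from 0.092 to 0.37 for Fgfr2 to Fgfr1, from 0.058 to 0.29 for Fgfr3 to Fgfr1 and from -0.093 to 0.034 for Fgfr3 to Fgfr2. No paired analysis was possible because the labels used here link no Control mouse to a BMAd-DTA mouse. The replicate numbers were given here in accession order and do not define pairs. Depth limits Fgf18 and Fgf23 in particular, with 7 to 29 and 0 to 90 counts per library.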
